A study of Mus musculus with 10 samples.

Results

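T cells recognize antigen through a receptor whose chains are assembled in each developing cell by joining variable (V), diversity (D) and joining (J) gene segments to a constant gene. Most T cells carry an alpha and a beta chain, whereas a smaller lineage, abundant among the lymphocytes of the gut epithelium, carries a gamma and a delta chain. Transcripts of a rearranged locus hold a V segment, a J segment and a constant gene, so a constant gene is shared by cells with many different V segments and a V segment only by the cells that chose it. Genes of the 4 T cell receptor loci were taken from the deposited table by symbol and selected on their total count, which had to reach 10 over the 10 libraries. Of 56691 genes in the table, 270 belonged to these loci and 45 of them reached that count. Tradd, an adaptor of the tumor necrosis factor receptor, starts with the same letters but lies outside the loci and was left out.

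The samples were colon tissue from male C57BL/6 mice that were 8 weeks old. Both groups drank 3% dextran sulfate sodium (DSS), a chemical that injures the colon epithelium and causes colitis, for 7 days. For the DSS group the methods of the study name no further agent and no gavage of a vehicle, and the ceAF group then received early chick embryo amniotic fluid (ceAF) by gavage at 15 mL/kg for 10 days. There were 5 libraries per group, each called by its group and number such as DSS-1 or ceAF-5, and the comparison asks how the colon transcriptome differed after ceAF. Between 16275884 and 19901549 reads were counted on genes per DSS library and between 14676471 and 18811795 per ceAF library. Only the labels show that the libraries came from separate animals, so the p-values measure the spread between these samples.

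The alpha locus, on chromosome 14 from 52665385 to 54461663, supplied 191 of the 270 genes but only 9 of the 45 that were selected. The delta locus lies inside the same interval, from 54119069 to 54386751, and supplied 2 of its 11 genes. From the beta locus, on chromosome 6 from 40868163 to 41535386, 26 of 53 genes were selected. The gamma locus, on chromosome 13 from 19362194 to 19536926, gave 8 of 15. These positions are those of the deposited table, whose genome build is not given in the sources used here.

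Reads fell mostly on the constant genes. Of 8951 counts on the 270 genes, 37.6% lay on the beta constants, 21% on the alpha constant, 19.1% on the gamma constants and 6.2% on the delta constant. The V, D and J segments together held 1436 counts, or 16%, and 137 of these 262 segments had no read in any library. By segment type the selected genes were 6 alpha V, 2 alpha J, 19 beta V, 5 beta J, 5 gamma V and 1 delta V segment beside 7 constants. The D segments had few reads, and none of the 2 beta and 2 delta D segments was selected. At the edge of the selection, Trav13-1, Trav16, Trav6n-6 and Trgv6 had exactly 10 counts and were included, and Trbd1, Trbj1-3 and Trbv23 had 9 and were not.

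In the ceAF group the alpha and beta constants stood at less than 50% of their level in the DSS group, and the gamma and delta constants differed by less than the spread between mice. Trac, the constant gene of the alpha chain (ENSMUSG00000076928, chromosome 14, 54457978 to 54461663, plus strand), had counts of 292, 336, 293, 297 and 122 in DSS-1 to DSS-5 and of 56, 170, 154, 70 and 93 in ceAF-1 to ceAF-5. Scaled to library size with TMM factors as CPM, these were 16.8, 16.8, 17.6, 18.9 and 7.37 CPM in the DSS group and 4.19, 10.9, 8.5, 4.21 and 5.13 CPM in the ceAF group. DSS-5 was the low mouse of its group, and it alone brought the groups into overlap, since it lay below ceAF-2 and ceAF-3. The means were 15.5 ± 4.62 CPM in the DSS group and 6.59 ± 3.01 CPM in the ceAF group (SD, n = 5). The fitted log2 fold change was −1.23 (standard error 0.32), and the exact two-sided permutation test on log2 CPM gave p = 0.0238, where the smallest value that the assignments of 5 of 10 mice allow is 0.00794. After Benjamini-Hochberg adjustment over 23624 genes the p-value of edgeR's quasi-likelihood test was 0.729, so the difference did not pass. In whole colon, fewer T cells and less receptor RNA per cell cannot be told apart.

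Either of the 2 beta constants can be joined to a beta chain, and their proteins do nearly the same work. Trbc1 (ENSMUSG00000076490, chromosome 6, 41515152 to 41516815, plus strand) measured 14.6, 14, 11.9, 15.1 and 3.81 CPM in DSS-1 to DSS-5 and 5.61, 7.34, 4.69, 3.25 and 3.25 CPM in ceAF-1 to ceAF-5. For Trbc2 (ENSMUSG00000076498, 41523664 to 41525286, plus strand) the values were 19.2, 17.2, 18.1, 19.7 and 7.01 CPM and 8.37, 10.7, 7.34, 3.19 and 4.58 CPM in the same order. Again DSS-5 was the lowest DSS mouse and the remaining DSS mice lay above all 5 ceAF mice for both genes. Log2 fold changes came to −1.30 (standard error 0.36) for Trbc1 and −1.25 (standard error 0.35) for Trbc2, with an exact permutation p of 0.0317 for each. The adjusted p-value of edgeR's quasi-likelihood test was 0.729 for both, with the ceAF values lower than the DSS mean in 5 of 5 mice. Without DSS-5 the log2 fold changes of Trac, Trbc1 and Trbc2 were −1.41, −1.53 and −1.44, and the adjusted p-values, 0.261, 0.151 and 0.282, still missed the threshold.

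Trdc, the constant gene of the delta chain (ENSMUSG00000104876, chromosome 14, 54380308 to 54386325, plus strand), did not show this separation. It measured 4.78, 4.91, 3.83, 3.37 and 0.846 CPM in DSS-1 to DSS-5 and 3.29, 3.6, 3.59, 1.74 and 2.48 CPM in ceAF-1 to ceAF-5. DSS-5 was the lowest of the 10 mice, and the other DSS mice overlapped with ceAF-2 and ceAF-3. The log2 fold change was −0.27 (standard error 0.40), with an exact permutation p of 0.857 and an adjusted p of 0.953 in edgeR's test. Without DSS-5 it was −0.52, with an adjusted p of 0.638 in edgeR's test. Trdv5 and Gm43434 lie on the opposite strand within Trdc with 4 and 7 counts in all, and the library protocol in the labels describes no step that marks strand.

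Among the gamma constants 3 of 4 were selected, and Trgc3 had 8 counts. Trgc2 (ENSMUSG00000076752, chromosome 13, 19488819 to 19491721, minus strand) measured 2.42, 7.16, 9.11, 6.49 and 1.15 CPM in DSS-1 to DSS-5 and 5.83, 4.76, 5.02, 3.31 and 3.53 CPM in ceAF-1 to ceAF-5. For Trgc1 (ENSMUSG00000076749, 19398273 to 19401194, plus strand) the values were 2.02, 4.91, 4.55, 3.18 and 0.846 CPM and 4.63, 3.28, 2.54, 2.35 and 2.87 CPM. Trgc4 (ENSMUSG00000076757, 19528728 to 19536926, plus strand) gave 0.979, 3.46, 2.94, 3.50 and 0.604 CPM and 2.91, 1.54, 2.48, 1.02 and 1.93 CPM. All 3 genes were low in DSS-1 as well as DSS-5 and high in DSS-2, DSS-3 and DSS-4, and the ceAF mice all lay within the range of the DSS mice. The log2 fold changes were −0.23 (standard error 0.45) for Trgc2, 0.01 (0.41) for Trgc1 and −0.22 (0.47) for Trgc4, with exact permutation p-values of 0.897, 0.730 and 1. Adjusted p-values in edgeR's quasi-likelihood test were 0.968, 0.998 and 0.970. Without DSS-5 the log2 fold changes of Trgc2 and Trgc4 were −0.49 and −0.46. The sign was not stable for 2 of the 3: for Trgc1 it became negative without DSS-1, DSS-5, ceAF-1 or ceAF-2 (−0.11, −0.23, −0.17 and −0.01), and for Trgc2 positive without DSS-3 (0.06) and with limma-trend on FPKM at a pseudocount of 0.1 (0.06). Of the windows of 50 bases of Trgc1 and Trgc2, 34.2% and 25.4% recurred in another gene, mostly another gamma constant, so reads could also be divided between these genes.

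**Figure D1:**
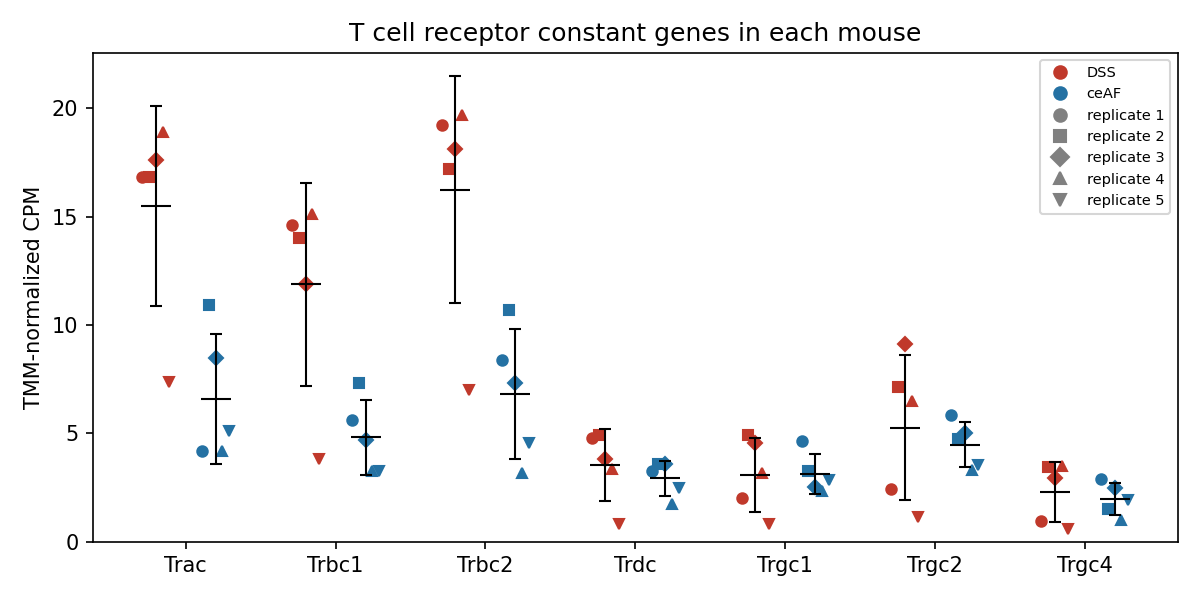
Each point is 1 mouse, with the TMM-normalized CPM of the 7 constant genes on the vertical axis, DSS in red and ceAF in blue, marker shapes for the replicate numbers, and bars for the group mean ± SD. For Trac, Trbc1 and Trbc2 the DSS mice other than DSS-5 lie above all ceAF mice, and for Trdc and the gamma constants the groups overlap.

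Per exonic length, measured as FPKM, the order in the DSS group was Trbc2 at 23.7 ± 7.66, Trac at 16.7 ± 4.92, Trbc1 at 16 ± 6.24, Trgc2 at 5.78 ± 3.69, Trgc1 at 3.38 ± 1.86, Trgc4 at 2.33 ± 1.39 and Trdc at 0.928 ± 0.437 (SD, n = 5). In the ceAF group the order was the same, from 9.69 ± 4.07 for Trbc2, 7 ± 3.18 for Trac and 6.34 ± 2.16 for Trbc1 to 4.83 ± 0.869, 3.34 ± 0.797 and 1.97 ± 0.657 for Trgc2, Trgc1 and Trgc4 and 0.750 ± 0.185 for Trdc. The genes were measured in the same mice, so neighbours in this order were compared within each mouse. Among the DSS mice Trbc2 was above Trac, Trbc1 above Trgc2 and Trgc2 above Trgc1 in every mouse. The order of Trac and Trbc1, of Trgc1 and Trgc4 and of Trgc4 and Trdc differed between DSS mice. Among the ceAF mice each gene was above the next in every mouse, except that Trbc1 was above Trac in ceAF-1. These orders were not tested. Trdc has the longest exonic length of the 7, 3865 bases against 692 for Trbc2, which places it last on this scale although it had more reads than Trgc1 and Trgc4.

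Summed over the selected genes, the alpha and beta loci were further from equality between the groups than the gamma and delta loci. The alpha genes summed to 17.7, 17.9, 17.9, 19.7 and 7.98 CPM in DSS-1 to DSS-5 and to 4.48, 11.4, 9.44, 4.33 and 5.79 CPM in ceAF-1 to ceAF-5, a ratio of group means of 0.437. The beta genes summed to 42.0, 37.7, 38.3, 39.8 and 16.7 CPM and to 15.9, 23.1, 15, 9.26 and 10.2 CPM, a ratio of 0.421. In both loci every DSS mouse but DSS-5 was above every ceAF mouse. The gamma sums were 5.88, 17.2, 18.4, 14.4 and 2.84 CPM in the DSS group and 14.5, 10.6, 11.5, 7.16 and 9.48 CPM in the ceAF group, a ratio of 0.907. The delta sums were 5.07, 5.01, 3.95, 3.56 and 1.81 CPM and 3.29, 3.86, 3.75, 2.35 and 2.70 CPM, a ratio of 0.822. For gamma and delta the groups overlapped over most of their range. Without DSS-5 the ratios were 0.388, 0.373, 0.762 and 0.725 for alpha, beta, gamma and delta. The gamma ratio turned above 1 without DSS-2 or DSS-3, at 0.04 and 0.08 on the log2 scale. These sums were not tested.

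Within single libraries the RNA of a pair of genes can be compared without scaling, because a ratio of counts from 1 library does not depend on its depth. The ratio of Trdc to Trac counts was 0.284, 0.292, 0.218, 0.178 and 0.115 in DSS-1 to DSS-5 and 0.786, 0.329, 0.422, 0.414 and 0.484 in ceAF-1 to ceAF-5. Every ceAF mouse was above every DSS mouse, and DSS-5, the DSS mouse with the least Trac, had the lowest ratio of all. The means were 0.218 ± 0.0742 and 0.487 ± 0.176 (SD, n = 5), a ratio of 2.24, or 2 without DSS-5. The ratio of Trdc to Cd3e, a chain of the signaling complex shared by both lineages, was 0.362, 0.268, 0.226, 0.209 and 0.182 in the DSS group and 0.512, 0.483, 0.492, 0.446 and 0.484 in the ceAF group, again without overlap. It varied less in the ceAF group (SD 0.0238) than in the DSS group (SD 0.0705). The ratios to Trac and to Cd3e share the Trdc counts, so they are not independent of each other.

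The gamma constants relative to Trac gave 0.322, 0.923, 0.945, 0.697 and 0.353 in DSS-1 to DSS-5 and 3.20, 0.876, 1.18, 1.59 and 1.62 in ceAF-1 to ceAF-5. Here ceAF-2 lay inside the DSS range and the other 4 ceAF mice above it. The gamma constants relative to Trdc gave 1.13, 3.16, 4.33, 3.91 and 3.07 in the DSS group and 4.07, 2.66, 2.80, 3.83 and 3.36 in the ceAF group. DSS-1 stood apart from all other mice with about as many gamma as delta constant reads. None of these ratios was tested.

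The ratios of Trbc1 to Trbc2 and of Trac to Cd3e overlapped between the groups. Trbc1 relative to Trbc2 measured 0.757, 0.813, 0.656, 0.768 and 0.543 in the DSS group and 0.670, 0.687, 0.639, 1.02 and 0.711 in the ceAF group, with overlapping ranges and the highest value in ceAF-4. Trac relative to Cd3e measured 1.27, 0.918, 1.04, 1.17 and 1.58 in the DSS group and 0.651, 1.47, 1.17, 1.08 and 1.00 in the ceAF group. The groups overlapped, with group means of 1.20 ± 0.255 and 1.07 ± 0.294 (SD, n = 5). In ceAF-1 the beta constants exceeded Trac 3.34 times, against 1.42 to 2.01 times in the other 9 mice.

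**Figure D2:**
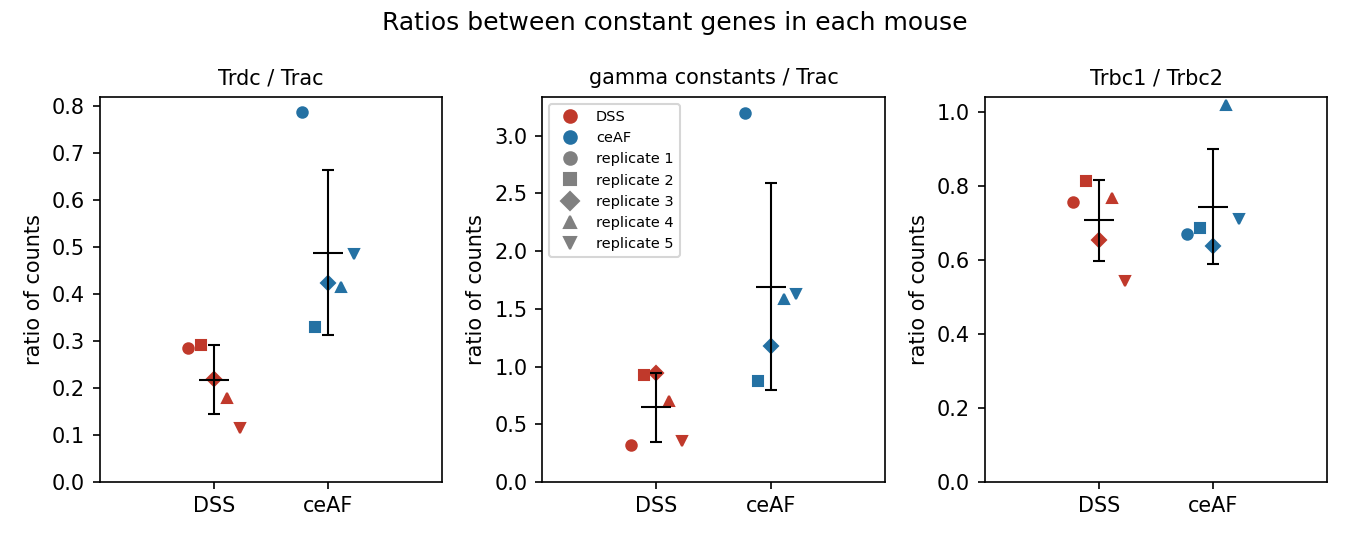
Ratios of read counts between constant genes, 1 point per mouse with the group mean ± SD as bars, DSS in red and ceAF in blue. The ratio of Trdc to Trac separates the groups, the ratio of the gamma constants to Trac separates them except for ceAF-2, and the ratio of Trbc1 to Trbc2 overlaps.

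Trbc1 and Trbc2 share much of their sequence, which bears on how reads were divided between them. In GENCODE M21 transcripts of GRCm38, matched by gene identifier, their coding parts were both 518 bases long and differed at 23 positions, an identity of 95.6%. The leading 259 bases were the same, the difference C260A followed (counted from 1 at the 5′ end, Trbc1 base before Trbc2 base), and the other 22 lay from position 383 to the end of the coding part. Of all windows of 50 bases, 40.5% of those of Trbc1 and 44.0% of those of Trbc2 also occurred in the other gene, so their separate values are uncertain where the counting could split shared reads. The 156 coding bases from position 363 on, which hold 22 of the 23 coding differences, are shown with the differing bases in capitals.
Trbc1: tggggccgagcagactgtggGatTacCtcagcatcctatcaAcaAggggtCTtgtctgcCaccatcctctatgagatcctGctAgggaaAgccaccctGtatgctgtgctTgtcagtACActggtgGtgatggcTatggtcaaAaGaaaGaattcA
Trbc2: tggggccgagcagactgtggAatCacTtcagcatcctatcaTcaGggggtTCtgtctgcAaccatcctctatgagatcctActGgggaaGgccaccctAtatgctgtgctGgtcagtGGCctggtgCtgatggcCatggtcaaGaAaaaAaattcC

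Of the 45 selected genes, 39 had a fitted log2 fold change below 0, against 49.6% of all 23624 genes tested, and their median was −0.97, against 0.00 over all genes. The adjusted p-value of edgeR's quasi-likelihood test was under 0.05 for 0 of the 45, as for 0% of all genes, and ranged from 0.729 to 0.998. At an unadjusted p-value under 0.05, 8 genes were lower in the ceAF group, against 3.66% of all genes, and 0 were higher, against 2.82%. The 8 were the constants Trac, Trbc1 and Trbc2, the J segments Trbj1-4 and Trbj1-7 and the V segments Trbv12-2, Trbv15 and Trbv29, of which the V segments were singled out after their values were seen. DESeq2 gave an adjusted p to only 8 of the 45, with 0 under 0.05, and put 9 of the 45 lower at an unadjusted p under 0.05, against 3.78% of all genes given a p. Without DSS-5 the edgeR count of lower genes at the unadjusted threshold was 14, against 4.58% of all genes. By locus, 25 of 26 beta genes and 8 of 9 alpha genes had the lower mean in the ceAF group, against 4 of 8 gamma genes and 2 of 2 delta genes.

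A total count of 10 can be reached through either group, and 13 genes had 10 or more counts in the DSS group and fewer in the ceAF group, whereas 0 genes had the reverse. Trbj1-4, Trbj1-7, Trbv15 and Trbv29, named above, were among the 13. Another 10 reached 10 only when the groups were added. For such genes the selection itself favors a difference, so the counts and the median above describe the list and nothing more was read from them. Only 8 of the 45, the constants and Trbv25, passed edgeR's filterByExpr.

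**Figure D3:**
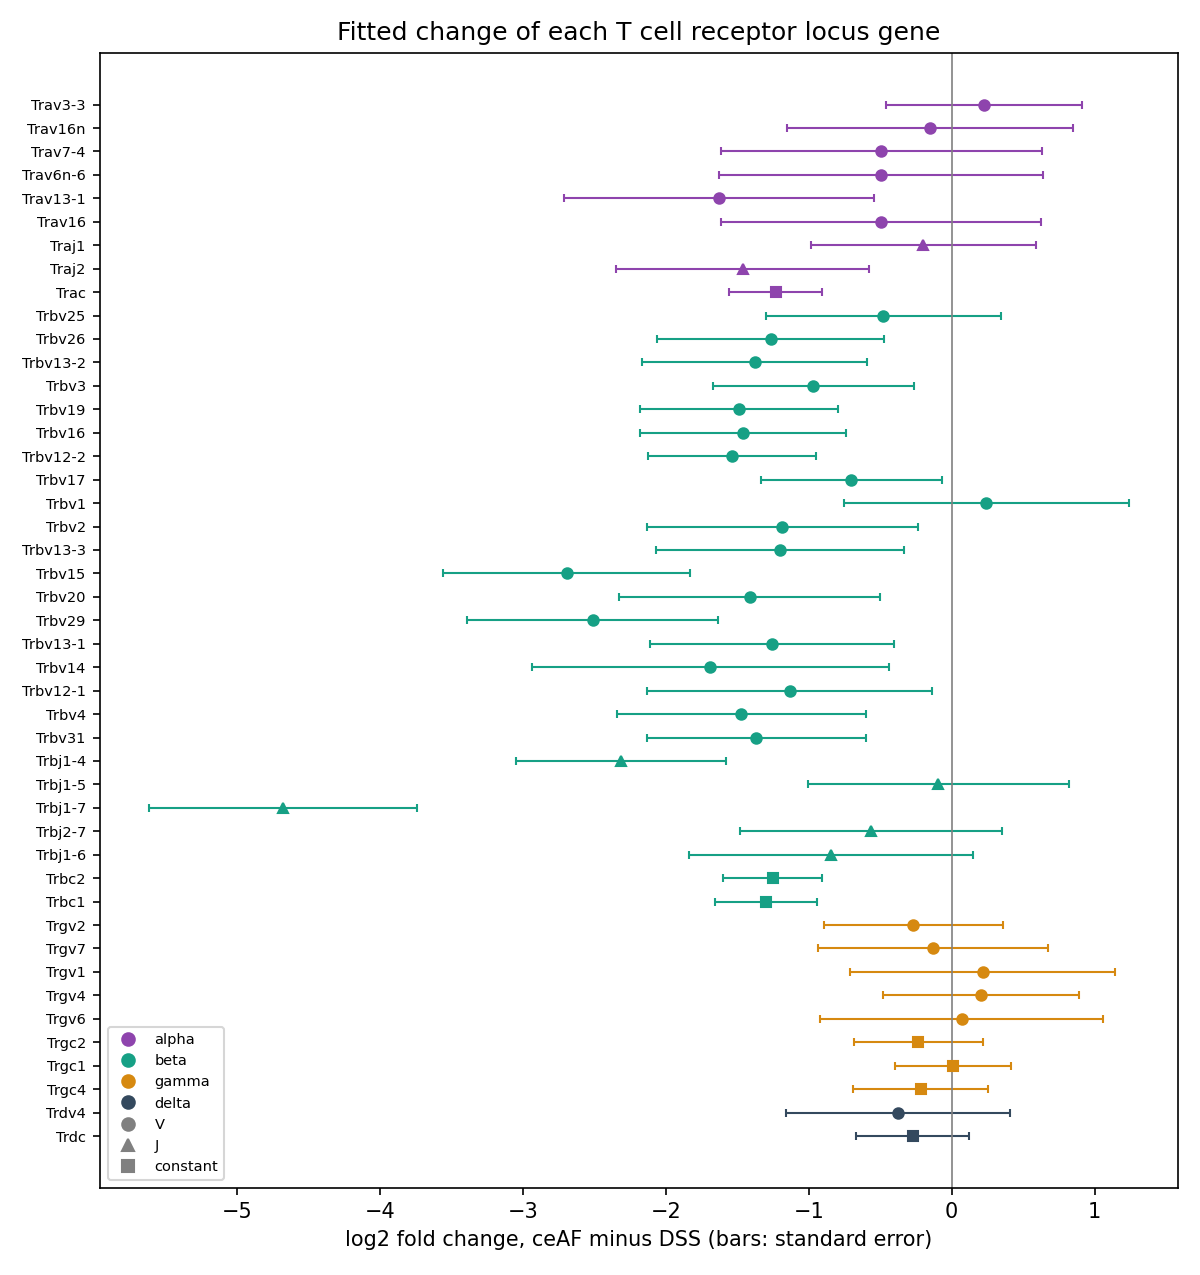
Fitted log2 fold change (ceAF minus DSS) of the 45 genes with standard errors as bars, colored by locus, with circles for V segments, triangles for J segments and squares for constants. The beta genes lie mostly to the left of 0 and the gamma genes around it, and bars are wide for segments with few reads. Of the 45 genes, 13 reached the minimum count through the DSS group alone, so nothing was read from their positions.

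Of the 35 beta V segments 19 were selected, with total counts from 12 to 168. Their median log2 fold change was −1.37, with 18 of 19 lower on average in the ceAF group and Trbv1 at 0.24 (standard error 1.00), but 9 of the 19 reached the minimum count through the DSS group alone, so nothing was read from this median and count. Trbv12-2 measured 0.403, 0.501, 0.419, 0.255 and 0.242 CPM in DSS-1 to DSS-5 and 0.0747, 0.193, 0.221, 0 and 0.110 CPM in ceAF-1 to ceAF-5. Every DSS mouse was above every ceAF mouse, including DSS-5, but DSS-4, DSS-5 and ceAF-3 had 4 reads each and were set apart only by library size. Its log2 fold change was −1.54 (standard error 0.58), with an adjusted p of 0.743 in edgeR's test. With Trbj1-4 and Trbj1-7 it was 1 of 3 selected genes whose groups did not overlap in this direction, against 0.478% of all genes tested, and without DSS-5 there were 8 such genes, against 1.87%. Trbj1-4 and Trbj1-7 reached the minimum count through the DSS group alone, so nothing was read from these numbers.

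Trbv15 and Trbv29 had 3 counts each in the ceAF group. Trbv4, with 13 counts, overlaps 5830405F06Rik on the same strand and shares 72.1% of its windows with it. Trbv15 had 4, 6, 4, 9 and 1 counts in the DSS mice and 0, 2, 0, 1 and 0 in the ceAF mice. Trbv29 had 4, 7, 3, 2 and 5 counts in the DSS mice, and in the ceAF group 3 counts in ceAF-3 and 0 in the other 4. Both reached the minimum count through the DSS group alone, so nothing was read from the size of their fitted changes.

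Trbv13-2, Trbv19 and Trbv3 were, with Trbv25 and Trbv26, the beta V segments with the most reads. Trbv13-2 had 7, 17, 11, 12 and 0 counts in DSS-1 to DSS-5 and 8, 1, 3, 1 and 3 in ceAF-1 to ceAF-5. It was absent from DSS-5, and ceAF-1 held 8 of the 16 counts of its group. The log2 fold changes were −1.38 (standard error 0.79) for Trbv13-2, −1.49 (0.69) for Trbv19 and −0.97 (0.70) for Trbv3, with adjusted p-values of 0.813, 0.778 and 0.874 in edgeR's test. Without ceAF-1 the change of Trbv13-2 was −2.15, and without ceAF-2 that of Trbv19 was −2.14.

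Trbv25 did not follow the beta constants. It is annotated as a V pseudogene in GENCODE M21 (ENSMUSG00000104473, chromosome 6, 41198865 to 41199137, plus strand, in the deposited table) and had the highest count of all V segments. Its counts were 32, 5, 18, 2 and 42 in DSS-1 to DSS-5 and 0, 23, 10, 26 and 10 in ceAF-1 to ceAF-5. DSS-5, the DSS mouse with the least Trac and Trbc, had the most, but ceAF-1, with the least Trac of all, had 0. The log2 fold change was −0.48 (standard error 0.82, adjusted p = 0.963 in edgeR's test), and 0.02 without DSS-5. Of all beta V reads Trbv25 made up 45.2% in DSS-5 (Clopper-Pearson 95% interval 34.8 to 55.8%) and 59.1% in ceAF-4 (43.2 to 73.7%). The intervals given here take reads as independent and cover counting error only. Where another segment led, as in DSS-2, DSS-4 and ceAF-1, it was Trbv13-2, at 14.7% (8.78 to 22.4%), 16.9% (9.05 to 27.7%) and 30.8% (14.3 to 51.8%). Like Trbv25, Trbv26 was highest in DSS-5. It had 8, 4, 10, 0 and 26 counts in the DSS mice and 1, 6, 6, 3 and 3 in the ceAF mice. In ceAF-4, where Trbv25 had 26 counts, Trbv26 had 3. The log2 fold change of Trbv26 was −1.27 (standard error 0.80, adjusted p = 0.831 in edgeR's test), and −0.44 without DSS-5.

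The number of V segments that can be seen is tied to the number of reads. Reads on beta V segments numbered 134, 116, 129, 71 and 93 in DSS-1 to DSS-5 and 26, 83, 48, 44 and 39 in ceAF-1 to ceAF-5, and fell on 23, 18, 19, 16 and 13 segments and on 10, 21, 16, 14 and 12 segments. The fewest reads and segments were both in ceAF-1, and ceAF-2 had more segments than DSS-2 to DSS-5. Over all 270 genes, 68, 73, 61, 57 and 43 had a read in the DSS mice and 30, 54, 56, 44 and 45 in the ceAF mice. The counts of segments were not adjusted for depth, and a difference in diversity was not tested.

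The J segments are short, and 5 of 14 beta J segments and 2 of 60 alpha J segments were selected. Trbj1-7 (ENSMUSG00000076489, chromosome 6, 41512576 to 41512621, plus strand) had counts of 2, 6, 4, 2 and 2 in DSS-1 to DSS-5 and 0 in all 5 ceAF mice. It was seen in every DSS mouse and in no ceAF mouse, but it passed the selection through the DSS counts alone, so no bound on a difference is given. The adjusted p-value of edgeR's quasi-likelihood test was 0.729.

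Trbj1-4 (ENSMUSG00000076486, 41511745 to 41511795, plus strand) measured 0.288, 0.150, 0.180, 0.0636 and 0.363 CPM in DSS-1 to DSS-5 and 0, 0, 0.0552, 0.0601 and 0.0551 CPM in ceAF-1 to ceAF-5. The groups did not overlap, but DSS-4 and ceAF-4 had 1 read each and were set apart only by library size, since 1 read was worth 0.0501 to 0.0747 CPM. Of its 21 counts 18 came from DSS mice and 3 from ceAF mice, so it too was selected through the DSS counts alone, and its adjusted p in edgeR's test was 0.729. Trbj1-5, Trbj1-6 and Trbj2-7 had log2 fold changes of −0.09, −0.84 and −0.56, with standard errors of 0.91 to 0.99.

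Many J segments encode a phenylalanine and glycine motif at the end of the antigen-binding loop, which was searched for in the spelling TTTGGNNNNGGN or TTCGGNNNNGGN. On the coding strand of GENCODE M21 transcripts this motif was present in 43 of 60 alpha, 11 of 14 beta, 2 of 2 delta and 0 of 4 gamma J segments of the table, or 70.0% of the 80. Among the 7 selected J segments, 4 held it. These 7 are shown whole, with the motif in capitals.
Traj1: gtgtgcagatagctgctccatctttcctg
Traj2: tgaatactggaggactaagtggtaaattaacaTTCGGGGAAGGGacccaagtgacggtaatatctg
Trbj1-4: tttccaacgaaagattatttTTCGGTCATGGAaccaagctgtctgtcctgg
Trbj1-5: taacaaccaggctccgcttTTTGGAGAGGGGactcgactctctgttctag
Trbj1-6: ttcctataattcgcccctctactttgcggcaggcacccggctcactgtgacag
Trbj1-7: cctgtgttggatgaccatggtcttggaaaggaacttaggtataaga
Trbj2-7: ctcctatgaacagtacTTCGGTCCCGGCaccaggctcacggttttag

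Trbj1-7 and its neighbour Trbj1-6 lacked these letters, as did Traj1, an annotated pseudogene. Traj1 had 22 counts in all, and its log2 fold change was −0.20 (standard error 0.79). Of the 13 counts of Traj2, 10 came from DSS mice and 3 from ceAF mice. Their adjusted p-values in edgeR's test were 0.983 and 0.820.

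Alpha V segments were numerous and almost unread. Of 130 listed, 77 had no read, the rest held 204 counts, and the 6 selected had totals of 10 to 17. Trav3-3, the highest, measured 0.115, 0.1, 0.0599, 0.0636 and 0.121 CPM in DSS-1 to DSS-5 and 0.149, 0.0644, 0.110, 0 and 0.221 CPM in ceAF-1 to ceAF-5. These are 0 to 4 reads per mouse, and the groups overlapped fully. The log2 fold changes of Trav3-3, Trav16n, Trav7-4, Trav13-1 and Trav16 were 0.23, −0.15, −0.49, −1.63 and −0.50, with standard errors of 0.69 to 1.13. The mouse alpha locus contains duplicated V clusters, and between 31.6% and 75.1% of the windows of 50 bases of the 6 segments recurred in another gene, for example Trav7-4 in Trav7d-4. Their values are therefore uncertain between copies.

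The gamma V segments had fitted changes near 0, as the gamma constants did. Trgv2 had the most reads and measured 0.115, 0.651, 0.719, 0.764 and 0.0604 CPM in DSS-1 to DSS-5 and 0.224, 0.257, 0.773, 0.301 and 0.331 CPM in ceAF-1 to ceAF-5. Like the constants it was low in DSS-1 and DSS-5. Trgv7, a V segment typical of gut epithelial gamma delta cells, had 0, 8, 8, 3 and 3 counts in the DSS mice and 6, 8, 1, 1 and 2 in the ceAF mice. The log2 fold changes of Trgv2, Trgv7, Trgv1, Trgv4 and Trgv6 ran from −0.27 to 0.22 with standard errors of 0.63 to 0.99. Gm31887, a gene on the opposite strand with 4 counts, overlaps Trgv7, Trgv4 and Trgv6, and 24.6% of the windows of Trgv1 recurred in another gene.

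Trdv4 was the only delta V segment selected. It had 5, 2, 2, 3 and 16 counts in DSS-1 to DSS-5 and 0, 4, 3, 10 and 4 in ceAF-1 to ceAF-5. DSS-5, which had the least Trdc, had the most Trdv4, and in ceAF-4, lowest of its group in Trdc, Trdv4 was also highest. The log2 fold change was −0.38 (standard error 0.78, adjusted p = 0.969 in edgeR's test) and became 0.52 without DSS-5. Gm30275, on the opposite strand at Trdv4, had 9 counts.

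The receptor reaches the surface with the CD3 chains and signals through the kinases that CD4 and CD8 bring to it. Of 33 such partner and signaling genes, 31 had a log2 fold change below 0, with a median of −1.14, and 23 were lower and 0 higher at an unadjusted p-value under 0.05, against 3.66% and 2.82% of all genes. Some of these genes were picked by the study on the same mice, so the list is not independent evidence. In edgeR's test 0 of the 33 had an adjusted p under 0.05. In DESeq2 8 of the 32 given an adjusted p had, against 0.187% of all genes given one, and without DSS-5 2 of the 33 had in edgeR's test, Cd3g and Lat, against 0.0127%. The 8 included Cd8b1, Cd3g, Cd3d and Cd8a, with DESeq2 adjusted p-values of 0.000764, 0.000848, 0.0129 and 0.0129, and Lat, which was singled out after its values were seen. Cd8b1, the CD8 beta chain found on conventional alpha beta T cells, measured 8.41, 8.52, 10.1, 9.29 and 5.50 CPM in DSS-1 to DSS-5 and 2.32, 2.96, 2.54, 1.62 and 0.441 CPM in ceAF-1 to ceAF-5. Its groups did not overlap, DSS-5 included, and its log2 fold change of −2.08 (standard error 0.39, adjusted p = 0.729 in edgeR's test) was larger in size than that of Trac. Cd8a, which gamma delta cells of the epithelium also express, was the other partner gene without overlap, at −1.43 (standard error 0.30). Cd4 stood at −1.14 (standard error 0.40), and Cd3d, Cd3e, Cd3g and Cd247 at −1.52, −1.20, −1.48 and −1.28, with adjusted p-values of 0.729 to 0.738 in edgeR's test for these 5.

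Markers of T cells outside the receptor loci were lower on average in the ceAF group. All 14 had a fitted change below 0, against 49.6% of all genes, 11 of them at an unadjusted p-value under 0.05, against 3.66%, and 0 at an adjusted p under 0.05 in edgeR's test. Of the 14, 12 are also among the partner genes above, with all 11 at the unadjusted threshold among these, so this list is not a separate observation. The markers summed to 182, 169, 167, 177 and 74.6 CPM in DSS-1 to DSS-5 and to 67.8, 96.3, 84.4, 53.4 and 65.6 CPM in ceAF-1 to ceAF-5, with Bcl11b the most abundant. DSS-5 was again the low DSS mouse. Bcl11b departed from this pattern, at 17.7 CPM in DSS-5 and 19.7 to 21.9 CPM in the other DSS mice. Its log2 fold change was −0.25 (standard error 0.11). Tcf7 was highest in DSS-1, at 27.2 CPM, against 5.56 to 8.97 CPM in the other DSS mice. The 6 markers of intraepithelial lymphocytes were all lower, 1 of them, Cd160, at an unadjusted p-value under 0.05, with sums of 50.6, 121, 127, 111 and 48.3 CPM and 70.4, 88.4, 50.3, 33.3 and 40.0 CPM and Gzmb the most abundant. Gzma and Gzmb made up most of these sums and were lower in DSS-1 and DSS-5 than in the other DSS mice, whereas Cd244a was highest of the 10 mice in DSS-1, at 8.93 CPM.

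Other cell types varied between mice in their own ways, and their counts stand against 49.6% of all genes with a fitted change below 0 and 3.66% lower at an unadjusted p-value under 0.05. B cell markers were lower for 9 of 9, 0 at an unadjusted p-value under 0.05, with sums of 271, 46.9, 34.9, 39.5 and 44.5 CPM in the DSS group and 9.79, 48.3, 92.8, 14.4 and 134 CPM in the ceAF group, led by Cd79a. Neutrophil markers were lower for 6 of 6, 5 of them at an unadjusted p-value under 0.05, with sums of 1740, 124, 297, 200 and 553 CPM and 20.6, 246, 185, 131 and 213 CPM, led by Ly6g. Ly6g made up most of the neutrophil sum in every mouse except DSS-1 and DSS-3. In DSS-5 it measured 485 CPM, beside 44.8 CPM of S100a8 and 0.665 CPM of Cxcr2. DSS-1 had the highest sum of both the B cell and the neutrophil markers. Macrophage markers were lower for 5 of 5, 2 at an unadjusted p-value under 0.05, with sums of 391, 105, 125, 114 and 119 CPM and 50.4, 110, 132, 93.8 and 115 CPM, led by Cd14. The 5 NK cell markers were split 3 lower and 2 higher, with sums of 2.53, 2.96, 4.43, 2.16 and 0.725 CPM and 2.47, 3.02, 2.98, 2.77 and 1.65 CPM, led by Klrb1c. Of these 5 genes 0 had an unadjusted p-value under 0.05.

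Of 7 colon epithelium markers 4 were lower and 3 higher, with sums of 17500, 21700, 24000, 24300 and 13500 CPM in the DSS group and 25200, 17800, 20900, 19700 and 14900 CPM in the ceAF group, led by Muc2. All 7 markers were read in every mouse, but no other part of the gut was compared. Of these Car1 varied most, at 1110, 4660, 7780, 4920 and 116 CPM in the DSS mice and 11700, 805, 3370, 759 and 507 CPM in the ceAF mice, and DSS-1 and DSS-5 were its low DSS mice as for the gamma constants. Over all genes with enough reads ceAF-1 differed from each other ceAF mouse by a chi-square per gene of 114 to 148, against 26.7 to 97.9 among those 4, and DSS-5 from each other DSS mouse by 83.8 to 97.4, against 14.6 to 52.5. The 4 smooth muscle markers were all lower, with sums of 1550, 1520, 1140, 882 and 1830 CPM and 919, 2050, 841, 975 and 1650 CPM, led by Myh11. Neither list had a gene at an unadjusted p-value under 0.05. Of 5 thymocyte and recombination markers, Rag1 had no read, only Cd1d1 had enough reads to be tested, and the sums were 7.83, 9.62, 8.87, 7.25 and 5.14 CPM and 3.74, 10.2, 6.35, 5.05 and 11.9 CPM. Apart from Rag1 every marker listed in the table had a read. The part of these cell types in the differences of the receptor genes was not tested.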

How the data were processed

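The authors deposited 1 table with raw count values per gene and mouse, in whole numbers, and an FPKM value for every count. The exonic length and position of each gene in that table are also the authors' deposited values. The submitters' processing notes name cutadapt 1.9.1 and HISAT2 2.2.1; the counting program, genome build and annotation are not given in the sources used here. Genes with a total count of at least 10 were scaled by TMM and compared in edgeR 4.0.16 (R 4.3.3) with the two-sided quasi-likelihood test and Benjamini-Hochberg adjustment over all genes tested, after a trial on simulated data. The trial recovered 20% of 2-fold, 77.5% of 4-fold and 87.5% of 8-fold changes at an adjusted p under 0.05. False calls were 2.44%, 7.74% and 4.37% of its calls in the same order. Its counts were drawn with the same dispersion for every gene, so these shares need not hold for the data. Exact permutation tests used log2 CPM with a prior count of 1. Standard deviations are between mice. Named genes were all selected constants, the V and J segments with the most reads, the 5 smallest p-values in each direction, and the CD3, CD4 and CD8 genes. Alternatives were upper quartile scaling, DESeq2 1.42.0, filterByExpr, a minimum count of 1, limma-trend (limma 3.58.1) on log2 FPKM with pseudocounts of 1 and 0.1, the replicate block, other member thresholds, and leaving out each mouse. Sequences came from GENCODE M21 transcripts by gene identifier, which matched all 270 genes. Intervals were exact (scipy 1.17.1), and plots were made in Python 3.11.15 with matplotlib 3.10.9. The members and gene lists were chosen with earlier results of these data known. Mice without colitis and mice given mesalazine were not analysed here. The values of 1 marker list are not reported here.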

Additional observations from a re-analysis of the deposited data

Results flagged for a closer look

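A mouse far from the other 4 of its group was found in 11 of 86 comparisons, meaning that the distance from it to the next mouse exceeded 0.71 of the whole range, where chance gives about 4.3. DSS-5 was the mouse in 7 of them. It was the lowest DSS mouse in Trac, with a gap of 0.82 of the range, in Trbc1 (0.71), in Trbc2 (0.80) and in the summed CPM of the alpha genes (0.831), the beta genes (0.827) and all 45 genes (0.838). In Trdv4 it was the highest DSS mouse (0.783). These values share genes and are not independent of each other. The cause of the position of DSS-5 was not tested.

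In the ceAF group, ceAF-1 was highest in Trbv13-2 (0.804), with 8 counts, and in the ratio of the beta constants to Trac (0.88), where it had 56 counts of Trac. The highest mouse in Trgv2 was ceAF-3 (0.806). The ratio of Trbc1 to Trbc2 was highest in ceAF-4 (0.811), which had 54 and 53 counts of the 2 genes.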

How the results depend on the processing

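Trac, Trbc1 and Trbc2 were lower in the ceAF group, short of an adjusted p of 0.05, under each alternative run. Trgc1, Trgc2, Trdv4, Trbv25 and most alpha V segments had no stable sign, and total counts not far above 10 limit what most segments can show. The log2 ratio of group means of Trdc to Trac ranged from 0.92 to 1.29 when each mouse was left out.

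Genes called over the whole table numbered 32 with DESeq2, 1 and 4 with limma-trend on FPKM with pseudocounts of 1 and 0.1, and 0 to 3 when each mouse was left out. Of the members limma-trend called 1 with each pseudocount, Trbj1-7, which reached the minimum through DSS counts alone and is constant at 0 in the ceAF group. DESeq2 gave an adjusted p to 8 of the 45 members and called 0. Members lower at an unadjusted p-value under 0.05 were 3 with filterByExpr, which tested 8 of them, and 7 to 14 when each mouse was left out. Of the partner genes DESeq2 called 8, and leaving out each mouse gave 0 to 2. A minimum total of 1 gave 133 members and of 50 gave 13, by construction.

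With limma-trend and a pseudocount of 0.1 the log2 fold change was −0.076 for Trav3-3, 0.053 for Trav7-4, 0.058 for Trgc2, 0.028 for Trgv2 and −0.0048 for Trgv6, each of opposite sign. Leaving out each mouse turned the sign at least once in Traj1 (−1.06 to 0.24), Trav16 (−1.75 to 0.14), Trav16n (−0.70 to 0.33), Trav3-3 (−0.19 to 0.53), Trav7-4 (−0.87 to 0.87), Trbj1-5 (−0.59 to 0.54), Trbv1 (−0.26 to 0.55), Trbv25 (−0.83 to 0.019), Trdv4 (−0.97 to 0.52), Trgc1 (−0.23 to 0.25), Trgc2 (−0.49 to 0.057), Trgv1 (−0.18 to 1.18), Trgv4 (−0.093 to 0.57), Trgv6 (−0.72 to 0.44) and Trgv7 (−0.64 to 0.22). Without a turn of sign the ranges were −2.18 to −1.01 for Trav13-1, −1.36 to −0.23 for Trbj1-6, −1.41 to −0.22 for Trbj2-7, −2.15 to −1.13 for Trbv13-2, −2.14 to −1.17 for Trbv19 and −1.58 to −0.44 for Trbv26. The cause was not tested.

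The labels number the mice 1 to 5 in both groups, but mice of the same number did not deviate together (correlations −0.168, −0.0563, −0.0115, −0.086 and 0.179), and 1 of 5 DSS mice correlated best with its own number, so the numbers were not taken as pairs. With the replicate block 0 genes were called, 473 genes were lower and 400 higher at an unadjusted p-value under 0.05, 8 members were lower, and Trgc2 had a log2 fold change of 0.034.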
